A study of Mus musculus with 14 samples.

Results

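The 10 genes described here, Spi1, Cebpa, Cebpb, Cebpd, Cebpe, Irf8, Gfi1, Gfi1b, Runx1 and Klf4, encode transcription factors of myeloid blood development, and were taken by name from a table of 24833 genes. All 10 were in the table, and 9 passed the filter on low counts, with Cebpe the exception. RNA came from bone marrow SLAM cells of C57BL/6 mice, a fraction enriched for hematopoietic stem cells and sorted as lineage-negative, Sca-1-positive, Kit-positive, Flk2-, CD48- and CD150+. Mice received intraperitoneal IL-1β at 0.5 µg per mouse per day for 1 day (3 libraries), PBS for 1 day (3 libraries), IL-1β at the same daily amount for 20 days (4 libraries) or PBS for 20 days (4 libraries). Each library is a biological replicate sorted from a pool of 3 to 5 mice, so a value is an average over animals and over all sorted cells. The study asks how acute and chronic exposure to this inflammatory cytokine changes gene expression in stem cells.

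PU.1, encoded by Spi1, is an ETS-family factor that binds a GGAA core and is required for myeloid and lymphoid development, where its amount helps to set which lineage a progenitor takes. The C/EBP proteins are basic leucine zipper factors that bind DNA as dimers: C/EBPα opens the granulocyte program, C/EBPβ serves granulocyte production under infection, C/EBPδ is a classic acute-phase factor, and C/EBPε acts late, in granule formation. IRF8 and KLF4 favour monocytes and dendritic cells, GFI1 and GFI1B are related zinc finger repressors that restrain stem cell cycling and guide the granulocyte and the erythroid and megakaryocyte branches, and RUNX1 is a master regulator of blood formation that also acts upstream of Spi1.

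Library totals ran from 21654896 to 29441947 counts, so 3 counts in a library amount to between 0.102 and 0.139 CPM (counts scaled to a common library total). The titles fall into 4 naming sets of unstated meaning, each balanced between IL-1β and PBS: "10k" (replicate 3 of both 1-day groups), "E060216" (replicates 1 and 2 at 1 day), "E061316" (replicates 1 and 2 at 20 days) and an untagged set (replicates 3 and 4 at 20 days). The 10 stem cell and sort gate genes, among them Kit and Procr, summed to between 1870 and 3710 CPM per library. Of these 10 genes, 3 were higher at 20 days (Flt3, Slamf1 and Cd48); Flt3 and Cd48 encode proteins that sorted cells should lack on their surface. IL-1β 20-day replicate 3 stood apart: 13 neutrophil granule genes summed to 1920 CPM in it, against 1.57 to 8.81 CPM in the other 13 libraries. The 20-day values of the 10 factors, and list counts that this library moves, are therefore also given without it. In the other 3 IL-1β 20-day libraries the sum was 4.60 to 8.81 CPM, against 5.40 to 7.89 CPM in the PBS 20-day libraries; Mmp8 was at 0 in every IL-1β 1-day and every PBS 20-day library. The 11 marrow macrophage markers summed to 42.5 to 50.9 CPM with IL-1β for 20 days and 43.1 to 84.4 CPM with PBS, the lowest being IL-1β replicate 3. The 10 B, T and mast cell markers summed to 61.6 to 81.3 CPM with IL-1β for 20 days and 46.5 to 61.8 CPM with PBS, the highest being IL-1β replicate 3. Cd3g was at 0 in every PBS and every IL-1β 1-day library. It had 2 counts in all over the 4 IL-1β 20-day libraries. The 10 erythroid markers summed to 1490 to 2230 CPM over all libraries.

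In unstimulated cells the 10 factors spanned a wide range of expression per length. Over the 7 PBS libraries, in CPM per kilobase of annotated exon, Gfi1b was highest (63.1 ± 26.4), followed by Cebpb (47.3 ± 20.3), Spi1 (42.3 ± 6.04), Runx1 (13.7 ± 1.32), Klf4 (9.13 ± 9.70), Gfi1 (3.18 ± 0.873), Cebpd (1.43 ± 0.402), Irf8 (1.36 ± 0.499), Cebpa (0.993 ± 0.427) and Cebpe (0.0659 ± 0.0670; SD, n = 7 for each). Only 2 steps in this order separated neighbours without overlapping library ranges, that from Spi1 to Runx1 and that from Cebpa to Cebpe. Spi1 and Runx1 varied least for their level, and Klf4 most.

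IL-1β left Spi1 near its PBS level at either time and moved 4 of the other factors. Cebpd was higher at 1 and 20 days, Gfi1 was higher at 20 days, Cebpb was lower at 1 and 20 days, and Klf4 was lower at 20 days. A gene is said to have risen, fallen or been called where its Benjamini-Hochberg adjusted p was under 0.05 in edgeR's quasi-likelihood test over all 15466 genes tested, in a model that also holds the naming set. Log2 fold changes are IL-1β over PBS ± SE, and intervals are approximate 95% intervals. At 1 day, 1 of the 9 tested factors rose and 1 fell, against 2.52% and 1.83% of all genes tested (4.35% in either direction). At 20 days, 2 rose and 2 fell, against 3.94% and 3.52% of all genes (7.46% in either direction). Without IL-1β 20-day replicate 3, 2 rose and 1 fell at 20 days, against 2.63% and 2.35% of 15323 genes (4.98% in either direction). Klf4 was no longer called in that fit. The 20-day calls of Cebpd and Gfi1 held without the naming set term and in all 14 fits that left out 1 library. All other calls were lost without that term. Over those 14 fits, Cebpd at 1 day was called in 11, Cebpb in 5 at 1 day and 9 at 20 days, and Klf4 at 20 days in 7. In bulk RNA, fewer cells of a type and less RNA per cell cannot be told apart.

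**Figure D1:**
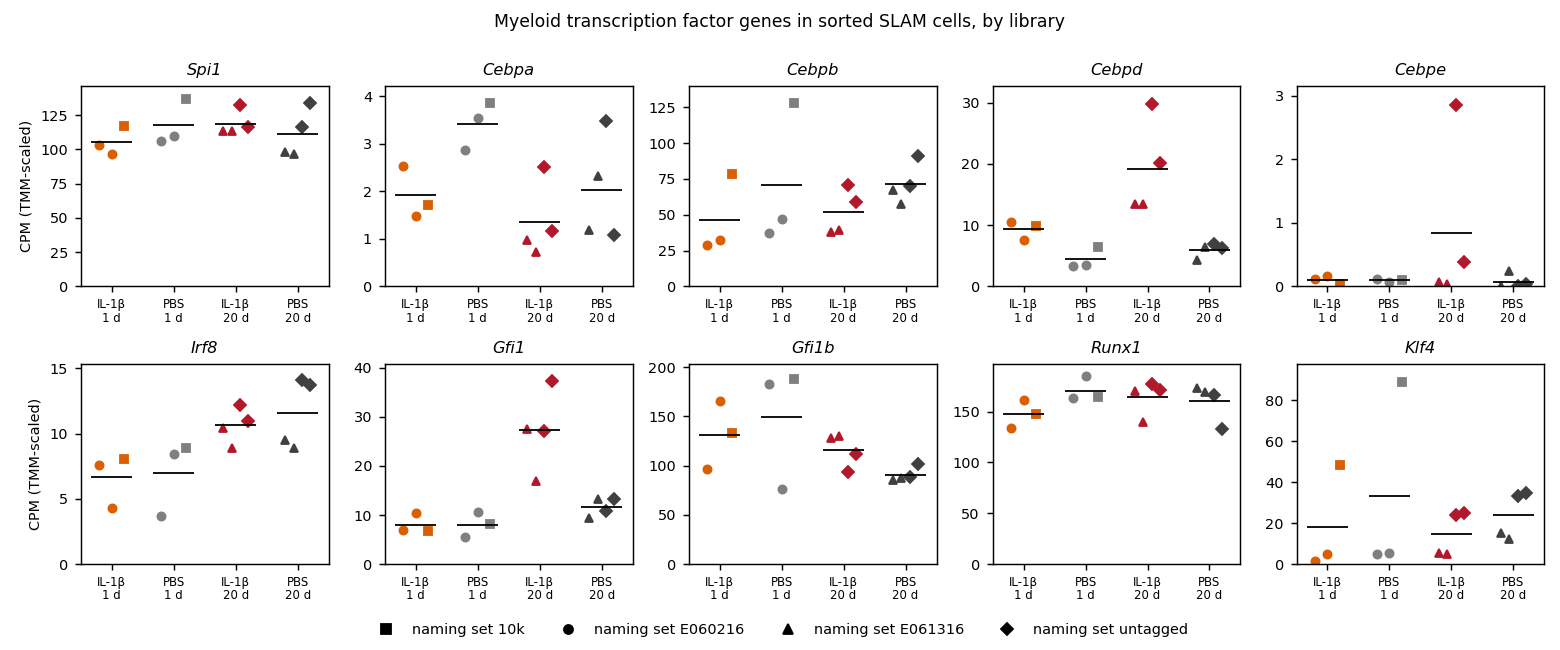
TMM-scaled CPM of the 10 factors in each of the 14 libraries (points), by treatment and duration, with group means as bars and naming sets as symbols; the vertical axes are linear and start at 0. Cebpd at both durations and Gfi1 at 20 days stand above PBS in every library, Cebpb and Klf4 separate by naming set within each group, and Cebpe is raised in 1 IL-1β library at 20 days.

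Spi1 (ENSMUSG00000002111, GRCm38 chromosome 2, 91082390 to 91115756, plus strand) had 103, 96.4 and 117 CPM in IL-1β 1-day replicates 1, 2 and 3, against 106, 110 and 137 CPM in the matching PBS replicates. In the 20-day groups it had 113, 113, 132 and 116 CPM with IL-1β and 97.9, 96.3, 116 and 134 CPM with PBS. The groups overlapped at both durations, and the highest library of each came from the 10k or the untagged set. The log2 fold change was -0.15 ± 0.10 at 1 day (interval -0.36 to 0.05, adjusted p = 0.442) and 0.10 ± 0.08 at 20 days (interval -0.08 to 0.28, adjusted p = 0.568). The 20-day mean was 118 ± 9.22 CPM with IL-1β (114 ± 1.72 without replicate 3), against 111 ± 17.9 CPM with PBS (SD, n = 4 each, or 3 without that replicate). These intervals exclude a change of Spi1 RNA as large as 2-fold in either direction. Within naming sets the values were -0.23 in 10k, -0.11 in E060216, 0.22 in E061316 and -0.02 in the untagged set. The difference between the durations was 0.25 ± 0.13 (adjusted p = 0.314).

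Runx1 (chromosome 16, 92601466 to 92826149, minus strand), whose product acts upstream of Spi1, had 134, 161 and 148 CPM with IL-1β for 1 day and 163, 185 and 164 CPM with PBS. The 20-day values were 170, 140, 177 and 171 CPM with IL-1β and 173, 169, 166 and 133 CPM with PBS. At 1 day every IL-1β library was below every PBS library, yet the difference of -0.21 ± 0.12 did not pass the test (adjusted p = 0.400), and at 20 days the groups overlapped (0.04 ± 0.11, adjusted p = 0.912, and -0.009 without IL-1β replicate 3, adjusted p = 0.981).

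Cebpd, which encodes C/EBPδ (ENSMUSG00000071637, chromosome 16, 15887286 to 15891031, plus strand, 1 exon), had the largest response among the factors tested. It had 10.5, 7.63 and 9.83 CPM with IL-1β for 1 day, against 3.42, 3.56 and 6.40 CPM with PBS. After 20 days it had 13.5, 13.5, 29.8 and 20.2 CPM with IL-1β, against 4.37, 6.40, 6.97 and 6.29 CPM with PBS. Every IL-1β library was above every PBS library of its duration, and replicate 3 at 20 days was the highest of all 14.

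The log2 fold change of Cebpd was 1.12 ± 0.25 at 1 day (interval 0.59 to 1.65, adjusted p = 0.0181) and 1.62 ± 0.21 at 20 days (interval 1.17 to 2.07, adjusted p = 0.000362). Without IL-1β 20-day replicate 3 the 20-day mean was 15.7 ± 3.84 CPM (n = 3) instead of 19.2 ± 7.69 (n = 4), against 6.01 ± 1.13 CPM with PBS, and the call held in all 14 fits that left out 1 library (log2 fold change 1.44 to 1.80). The 1-day call did not hold when replicate 1 of IL-1β (adjusted p = 0.102), replicate 1 of PBS (0.0972) or replicate 2 of PBS (0.107) was left out, or in a fit that omits the naming set (0.130). Within naming sets the values were 0.62 in 10k, 1.38 in E060216, 1.32 in E061316 and 1.91 in the untagged set. The longer exposure did not pass as larger than the shorter one (difference 0.50 ± 0.32, adjusted p = 0.444).

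The exons of Cebpd share 562 bases with Spidr on the other strand, a gene of DNA repair, and the library chemistry does not mark strand. Spidr had a log2 fold change of 0.13 ± 0.14 at 1 day and 0.36 ± 0.12 at 20 days (adjusted p = 0.706 and 0.0909). Both were smaller than those of Cebpd, but the level of Spidr was higher. At 20 days Spidr averaged 75.2 ± 11.2 CPM with IL-1β and 59.4 ± 15.6 CPM with PBS. Cebpd averaged 19.2 ± 7.69 and 6.01 ± 1.13 CPM in these groups (SD, n = 4 each). The part of Spidr reads in the Cebpd counts was not tested. The 3 genes whose log2 CPM followed Cebpd most closely over the 14 libraries were Ddah2 (Pearson r = 0.936), Casp6 (0.925) and Csf2rb (0.919), the common beta chain of the GM-CSF and IL-3 receptors; libraries share treatment and naming set in these values.

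Gfi1 (ENSMUSG00000029275, chromosome 5, 107716657 to 107726036, minus strand) had the largest difference between the durations among the factors, though that difference did not pass the test. With 1 day of IL-1β it had 6.87, 10.4 and 6.69 CPM, against 5.49, 10.6 and 8.08 CPM with PBS. With 20 days it had 27.5, 17.0, 27.2 and 37.3 CPM, against 9.49, 13.2, 10.8 and 13.3 CPM with PBS. The 1-day groups overlapped, while all 4 chronic IL-1β libraries lay above all 4 PBS libraries.

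At 20 days Gfi1 rose by 1.20 ± 0.24 (interval 0.69 to 1.70, adjusted p = 0.00682), and at 1 day its value was -0.02 ± 0.28 (interval -0.62 to 0.57, adjusted p = 0.981). The 20-day call held in all 14 fits with 1 library left out (1.04 to 1.35) and within sets the values were 0.97 in E061316 and 1.42 in the untagged set. The mean without IL-1β replicate 3 was 27.3 ± 10.1 CPM (n = 3), close to the 27.2 ± 8.26 with it (n = 4), against 11.7 ± 1.87 CPM with PBS (n = 4). The difference between the durations was 1.22 ± 0.36, with an adjusted p of 0.0915; DESeq2 called it (1.23, adjusted p = 0.0201), as did the fit without IL-1β 20-day replicate 2 (1.38, adjusted p = 0.0447). In that comparison 0 of the 9 tested factors passed edgeR's test, against 2.14% of all genes (1.15% higher and 0.989% lower), and 1 had an unadjusted p under 0.05.

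The genes most like Gfi1 over the 14 libraries were Flt3 (r = 0.953), a receptor gene of multipotent progenitors whose product the sort excludes, Rhod (r = 0.942) and Zbtb16 (r = 0.939), which encodes the zinc finger factor PLZF. At 20 days Flt3 rose by 1.02 ± 0.15 (adjusted p = 0.000768) and Zbtb16 by 0.90 ± 0.16 (adjusted p = 0.00361), while Rhod had 0.75 ± 0.25 (adjusted p = 0.0949). The part of Flt3-expressing cells in the Gfi1 result was not tested. Gfi1 shares 101 exon bases with A430072P03Rik on the opposite strand, which had 103 counts over all libraries.

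The promoter of Gfi1, a factor that rose at 20 days, is shown as the 1 window among its 2 listed starts with a match to a motif searched; the other, at chr5:107724294-107724593, holds none. It covers 250 bases before to 50 after the first of these starts, at chr5:107725756-107726055 (RefSeq, GRCm38.p6, minus strand, written 5′ to 3′ on that strand), with motif matches in capitals.
Gfi1: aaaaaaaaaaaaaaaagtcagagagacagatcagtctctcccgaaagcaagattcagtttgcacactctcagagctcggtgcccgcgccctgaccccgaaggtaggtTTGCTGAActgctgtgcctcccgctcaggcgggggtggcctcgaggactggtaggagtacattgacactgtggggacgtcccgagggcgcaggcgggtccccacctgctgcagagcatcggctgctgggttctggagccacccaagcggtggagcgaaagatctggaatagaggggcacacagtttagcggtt
Both strands were searched for each motif. The PU.1 letters were GAGGAA, found in 28.3% of 32851 promoters of this length. Those of C/EBP were TTGCNNAA, in 10.8%. Those of RUNX were TGTGGT, in 16.8%. Those of GFI1 itself were AAATCA, in 14%. The cyclic AMP response element was TGACGTCA, in 1.79%, and its core, contained in it, was TGACG. The TATA box was TATAAA, and the NF-κB motif was present in 1.2% of promoters. The KLF letters CACCC, in 57.5%, were also searched and are not capitalised; the Gfi1 window holds them 2 times. The capitals mark TTGCTGAA, 143 bases before the start, a fit to the C/EBP letters. Of the motifs marked by capitals, no other was found in it. Promoters were listed for 7 of the 10 genes; Spi1, Cebpd and Cebpe were not among them. A match in letters is a description and not a binding site.

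Cebpb, which encodes C/EBPβ (ENSMUSG00000056501, chromosome 2, 167688915 to 167690418, plus strand, 1 exon), fell at both durations. It had 28.6, 32.2 and 78.5 CPM with IL-1β for 1 day, against 37.2, 46.8 and 128 CPM with PBS. The 20-day libraries had 38.0, 39.7, 70.8 and 58.8 CPM with IL-1β, against 67.2, 57.3, 70.2 and 90.8 CPM with PBS. Group ranges overlapped, with the 10k and untagged libraries higher than most others, and within 3 of the 4 naming sets each IL-1β library was below each PBS library, the untagged set being the exception.

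The log2 fold change of Cebpb was -0.55 ± 0.14 at 1 day (adjusted p = 0.0445) and -0.50 ± 0.12 at 20 days (adjusted p = 0.0250), or -0.71, -0.47, -0.68 and -0.31 within 10k, E060216, E061316 and the untagged set. With IL-1β 20-day replicate 3 left out, the 20-day value was -0.59 (adjusted p = 0.0189). Both calls rest on the naming set term: without it the log2 fold change was -0.60 at 1 day (adjusted p = 0.624) and -0.46 at 20 days (adjusted p = 0.659), close to the values with it. For 1 day the call did not hold without any of IL-1β 1-day replicates 1, 2 and 3, PBS 1-day replicates 2 and 3, IL-1β 20-day replicates 1, 2 and 4 and PBS 20-day replicate 2 (log2 fold changes -0.62 to -0.47, adjusted p from 0.0510 to 0.205). For 20 days it did not hold without IL-1β 20-day replicate 1, 2 or 4 or PBS 20-day replicate 1 or 4 (-0.49 to -0.43, adjusted p from 0.0563 to 0.0909). Cebpb shares 312 exon bases with Tmem189 on the opposite strand, which had 0.20 ± 0.13 at 1 day and 0.00 ± 0.12 at 20 days (adjusted p = 0.471 and 0.992).

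Klf4 (ENSMUSG00000003032, chromosome 4, 55527143 to 55532466, minus strand) had 1.53, 4.91 and 48.2 CPM with IL-1β for 1 day and 5.10, 5.25 and 88.9 CPM with PBS. At 20 days it had 5.17, 5.07, 24.0 and 25.1 CPM with IL-1β and 15.1, 12.3, 33.4 and 34.9 CPM with PBS. The spread between naming sets was larger than the treatment difference, and within every set the IL-1β libraries were below the PBS libraries. The log2 fold change was -0.77 ± 0.30 at 1 day (interval -1.41 to -0.13, adjusted p = 0.177) and -0.92 ± 0.25 at 20 days (interval -1.45 to -0.39, adjusted p = 0.0373), with -0.88, -0.69, -1.41 and -0.48 within 10k, E060216, E061316 and the untagged set.

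The 20-day call of Klf4 was lost without the naming set term (-0.70, adjusted p = 0.876), and when PBS 1-day replicate 2, IL-1β 20-day replicates 1, 2, 3 or 4, or PBS 20-day replicates 1 or 2 were left out (-1.03 to -0.79, adjusted p from 0.0504 to 0.126; -0.98 and 0.0570 without IL-1β replicate 3). Of the 14 fits with a library left out, 1 called the 1-day change, that without IL-1β 1-day replicate 2 (-1.27, adjusted p = 0.0271).

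Genes of the immediate early response, which cells transcribe within minutes of a stimulus or of handling, were among those whose levels followed Cebpb and Klf4. The genes most like Cebpb over the 14 libraries were Ier2 (r = 0.974), Egr1 (0.966) and Taf7 (0.959), and those most like Klf4 were Fosb (0.990), Klf6 (0.976) and Klf2 (0.970); libraries share naming set and treatment here. Egr1 had 118, 113 and 533 CPM with IL-1β for 1 day and 162, 329 and 1080 CPM with PBS, and 185, 206, 574 and 478 CPM with IL-1β for 20 days and 450, 380, 709 and 597 CPM with PBS. Its log2 fold change was -1.07 ± 0.22 at 1 day and -0.70 ± 0.19 at 20 days (adjusted p = 0.0122 and 0.0396). Fos, chosen after its values were seen, had -0.56 ± 0.18 and -0.36 ± 0.16 (adjusted p = 0.105 and 0.212). The part of sample handling in the levels of Cebpb and Klf4 was not tested.

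**Figure D2:**
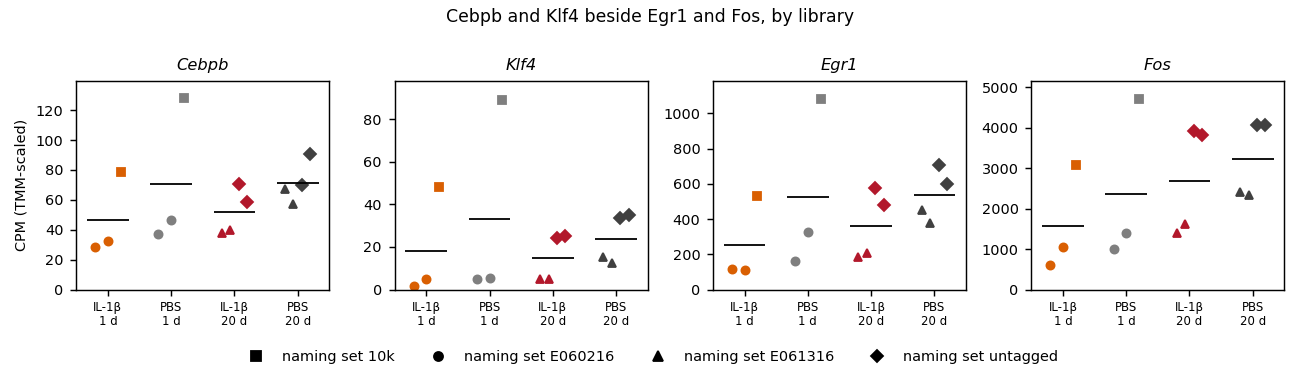
TMM-scaled CPM of Cebpb, Klf4, Egr1 and Fos in each library, by treatment and duration, with group means as bars and naming sets as symbols; axes are linear from 0. In all 4 genes the 10k library is the highest of its group at 1 day, and the untagged libraries lie above those of E061316 in the same group at 20 days.

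The promoters of the factors that fell together are shown for comparison, from the same RefSeq table and with the same motifs in capitals, each 250 bases before to 50 after the start and 5′ to 3′ on the gene's strand. Cebpb lies at chr2:167688665-167688964 (plus strand, 80.7% G or C) and Klf4 at chr4:55532426-55532725 (minus strand, 74.3% G or C).
Cebpb: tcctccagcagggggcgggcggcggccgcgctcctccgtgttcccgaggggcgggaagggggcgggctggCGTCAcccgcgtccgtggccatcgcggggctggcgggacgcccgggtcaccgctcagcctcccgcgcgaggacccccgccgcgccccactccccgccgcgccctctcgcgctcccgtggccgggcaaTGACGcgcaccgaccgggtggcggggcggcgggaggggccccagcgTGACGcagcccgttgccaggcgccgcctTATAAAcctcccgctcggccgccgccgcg
Klf4: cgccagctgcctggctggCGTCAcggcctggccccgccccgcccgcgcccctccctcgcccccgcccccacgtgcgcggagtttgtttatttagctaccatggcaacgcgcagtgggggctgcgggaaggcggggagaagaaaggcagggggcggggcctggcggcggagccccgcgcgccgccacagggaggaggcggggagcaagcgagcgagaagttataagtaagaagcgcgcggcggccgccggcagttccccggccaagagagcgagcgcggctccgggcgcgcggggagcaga
The Cebpb window holds the response element core TGACG 3 times, 180, 53 and 7 bases before the start (the first as CGTCA on the other strand), and TATAAA 22 bases after it. The Klf4 window holds that core on the other strand, as CGTCA, 232 bases before the start. The core occurs in 20.8% and TATAAA in 13.6% of all 32851 promoters. Neither window holds a match to the PU.1 or C/EBP letters.

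Cebpa (ENSMUSG00000034957, chromosome 7, 35119293 to 35121928, plus strand), the founder of the granulocyte program, was scarce. It had 2.53, 1.49 and 1.72 CPM with IL-1β for 1 day and 2.87, 3.53 and 3.85 CPM with PBS, from 36 to 96 counts per library. At 20 days it had 0.97, 0.72, 2.52 and 1.17 CPM with IL-1β and 1.19, 2.32, 3.48 and 1.09 CPM with PBS. All 1-day IL-1β libraries were below all PBS libraries, and the 20-day groups overlapped. The log2 fold changes of -0.83 ± 0.48 (interval -1.86 to 0.20, adjusted p = 0.388) and -0.68 ± 0.43 (interval -1.59 to 0.24, adjusted p = 0.416) did not pass, and at this depth the intervals allow a fall of more than 2-fold. Without IL-1β 20-day replicate 3, the highest IL-1β library at that time, the IL-1β mean was 0.954 ± 0.228 CPM (n = 3) instead of 1.35 ± 0.803 (n = 4), against 2.02 ± 1.12 CPM with PBS, and the log2 fold change was -1.02 (adjusted p = 0.258).

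Cebpe, the factor of secondary granules, was not tested. It had 8 counts in all over the 3 IL-1β 1-day libraries and 7 over the PBS 1-day libraries. At 20 days it had 2, 1, 66 and 10 counts with IL-1β, against 0, 6, 0 and 1 with PBS. Its 66 counts (2.86 CPM) came from IL-1β replicate 3, the library with 43237 counts of neutrophil granule genes, and the IL-1β mean was 0.841 ± 1.36 CPM with it and 0.166 ± 0.196 without it (SD, n = 4 and 3), against 0.0709 ± 0.115 CPM with PBS (n = 4). The part of granulocytes in that library was not tested.

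Irf8 (ENSMUSG00000041515, chromosome 8, 120736358 to 120756694, plus strand) had 7.60, 4.33 and 8.04 CPM with IL-1β for 1 day and 3.66, 8.41 and 8.90 CPM with PBS. The 20-day libraries had 10.4, 8.92, 12.2 and 11.0 CPM with IL-1β and 9.49, 8.92, 14.1 and 13.7 CPM with PBS. The groups overlapped at both durations, with log2 fold changes of -0.06 ± 0.27 and -0.09 ± 0.23 (intervals -0.64 to 0.52 and -0.59 to 0.40, adjusted p = 0.939 and 0.887). Without IL-1β replicate 3 the 20-day value was -0.09 (adjusted p = 0.922).

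Gfi1b (ENSMUSG00000026815, chromosome 2, 28609450 to 28621982, minus strand), the paralog of Gfi1, passed no test. It had 96.4, 165 and 133 CPM with IL-1β for 1 day and 183, 76.2 and 188 CPM with PBS, a wide spread within each group. After 20 days it had 128, 130, 93.9 and 112 CPM with IL-1β and 84.9, 87.1, 88.0 and 102 CPM with PBS, where 1 IL-1β library lay within the PBS range. The log2 fold change was -0.16 ± 0.26 at 1 day and 0.35 ± 0.22 at 20 days (intervals -0.71 to 0.39 and -0.12 to 0.83, adjusted p = 0.814 and 0.419). The 20-day value was 0.12 in the untagged set and 0.58 in E061316. With IL-1β replicate 3 left out it was 0.45 (adjusted p = 0.378).

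**Figure D3:**
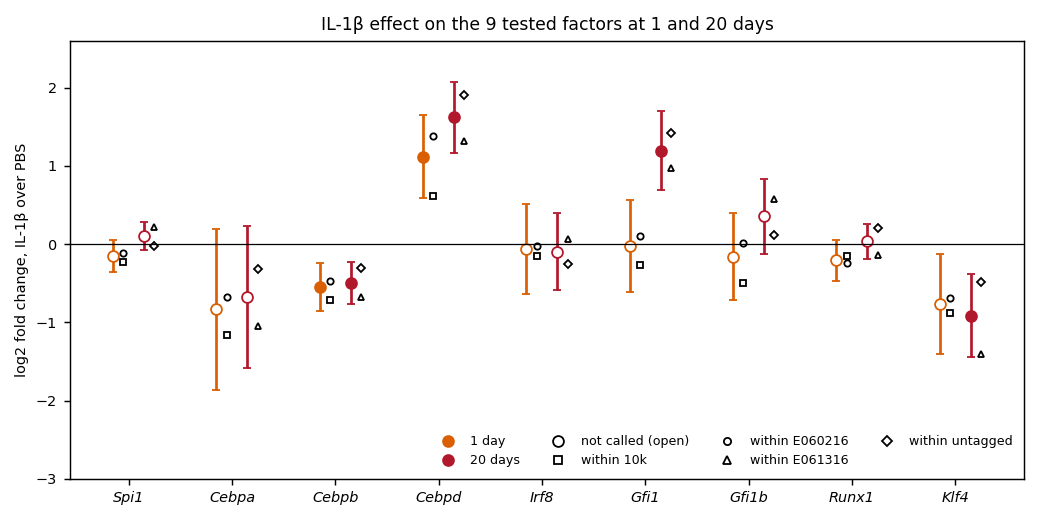
Log2 fold change of IL-1β over PBS for the 9 tested factors at 1 day and 20 days (large points, with approximate 95% intervals; filled where the adjusted p was under 0.05), with the values within each naming set as small black symbols. Cebpd lies above 0 at both durations and Gfi1 at 20 days, Cebpb lies below 0 at both durations, Klf4 is filled at 20 days, and the intervals of Spi1 span 0.

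PBS cells at 20 days and at 1 day were also compared. No gene of 15466 was called by edgeR (0% of genes; 676 at an unadjusted p under 0.05, and 10 called by DESeq2), and among the 9 tested factors 2 had an unadjusted p under 0.05. Irf8 averaged 11.5 ± 2.71 CPM at 20 days (n = 4) and 6.99 ± 2.89 CPM at 1 day (n = 3), and Gfi1b 90.4 ± 7.52 CPM at 20 days and 149 ± 63.0 CPM at 1 day (SD; adjusted p = 0.999 for each). Duration and naming set cannot be told apart in this comparison.

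Genes known as partners, paralogs or antagonists of these factors changed in 1 case at 1 day and in 3 cases at 20 days. Of 20 such genes, 19 were tested; over all genes 4.35% were called at 1 day and 7.46% at 20 days, so the 1-day count is near the background. At 1 day 1 fell, Gata2, an early stem and progenitor factor, with 392 ± 17.2 CPM with IL-1β and 516 ± 28.0 CPM with PBS (-0.40 ± 0.09, adjusted p = 0.0170). That call was lost without any of the 3 IL-1β libraries or PBS replicates 2 or 3 of the 1-day groups. At 20 days Trib2, whose product is known to drive C/EBPα to degradation, averaged 6.20 ± 1.18 CPM with IL-1β and 24.7 ± 6.79 CPM with PBS (-2.0 ± 0.22, adjusted p = 9.38e-05). Gata1, an erythroid factor that opposes PU.1, averaged 82.8 ± 21.6 CPM with IL-1β and 50.9 ± 7.32 CPM with PBS (0.70 ± 0.16, adjusted p = 0.0177), and Myb, a progenitor factor, 477 ± 48.0 CPM with IL-1β and 348 ± 53.4 CPM with PBS (0.45 ± 0.11, adjusted p = 0.0209; SD, n = 4 each). Neither Gata1 nor Myb was called without IL-1β replicate 1 or 4, and without IL-1β replicate 3 Gata1 rose by 0.86, Myb was no longer called and 2 genes of the list fell in place of 1. Between the durations Trib2 differed by -1.53 ± 0.32 (adjusted p = 0.0333) and Gata2 by 0.59 ± 0.11 (adjusted p = 0.0240). In this difference no gene of the list was called lower when any 1-day library, IL-1β 20-day replicate 1 or 4 or PBS 20-day replicate 3 was left out, and none higher without replicate 1 or 2 of either 1-day group or IL-1β 20-day replicate 4. The median log2 fold change of the list was -0.12 at 1 day and -0.04 at 20 days, against -0.01 and 0.00 over all genes tested.

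Of 29 genes known as PU.1 targets, 11 rose at 20 days and none fell, against 3.94% and 3.52% of all genes. Spi1 itself did not pass the test. The median log2 fold change of the 29 genes was 0.42, with 23 above 0, against 0.00 over all genes. Like all lists here, this one was chosen with earlier results of these data known, so its excess is not an independent test. The activity of PU.1 was not tested. At 1 day 1 rose (Cd53) and 1 fell (Fcer1g), against 2.52% and 1.83% of all genes, so these counts are near the background. The 1-day median was -0.11. None fell without IL-1β 1-day replicate 1, and 3 fell without PBS 20-day replicate 4. Pirb, an inhibitory immunoglobulin-like receptor, averaged 4.81 ± 1.60 CPM with IL-1β for 20 days and 0.635 ± 0.211 CPM with PBS (2.89 ± 0.36, adjusted p = 0.000281). Csf2rb, named above beside Cebpd, averaged 47.3 ± 6.87 CPM with IL-1β and 28.0 ± 2.86 CPM with PBS (0.75 ± 0.12, adjusted p = 0.00209; SD, n = 4 each). The tetraspanin gene Cd53 (3.21 ± 0.28) and the integrin chain gene Itgb2 (1.11 ± 0.11) had smaller adjusted p, 1.57e-05 and 2.55e-05.

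Without IL-1β 20-day replicate 3, 8 PU.1 target genes rose and 1 fell at 20 days, against 2.63% and 2.35% of all genes, and the median was 0.20. Over the 14 fits that left out 1 library the number that rose lay between 8 and 10. Cybb, an oxidase subunit gene named for its value, had the widest gap in log2 fold change, 4.73 with replicate 3 and 2.43 without it, neither called. Its IL-1β mean was 5.94 ± 10.9 CPM with replicate 3 and 0.500 ± 0.589 without it, against 0.107 ± 0.146 CPM with PBS. Between the durations Itgb2 (1.17 ± 0.16, adjusted p = 0.00553) and Ncf1 (1.62 ± 0.32, adjusted p = 0.0283), which encodes a subunit of the phagocyte oxidase, differed. Only 1 of the 2 was called without any of the 3 IL-1β or PBS replicates 1 or 2 of the 1-day groups, and 4 list genes were called without PBS 20-day replicate 4.

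**Figure D4:**
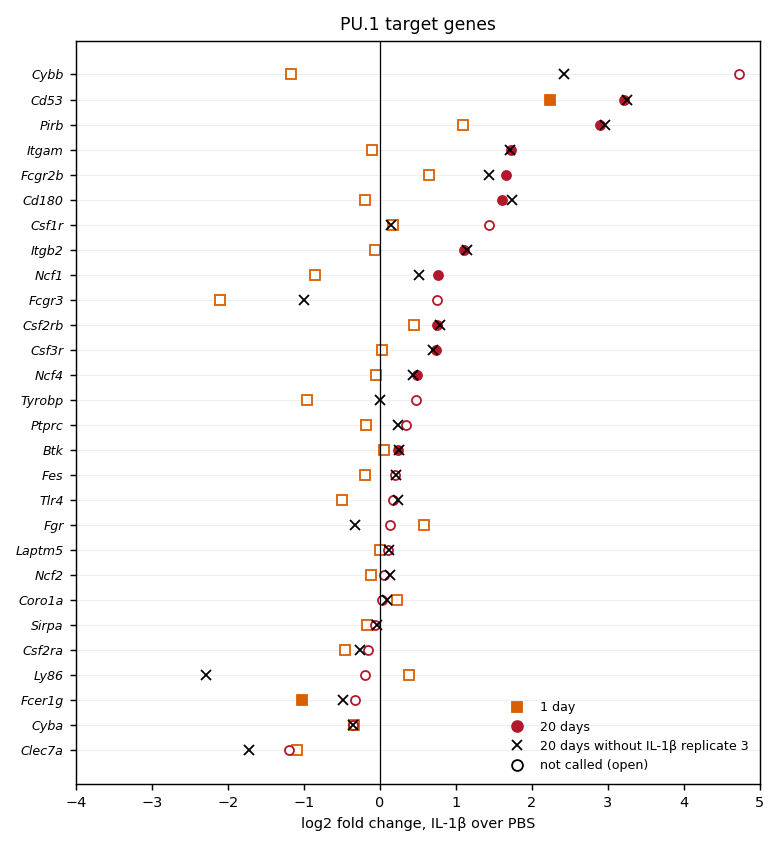
Log2 fold change of IL-1β over PBS for the PU.1 target genes, 1 of the 29 not drawn, at 1 day (squares) and 20 days (circles), filled where the adjusted p was under 0.05, with the 20-day value without IL-1β replicate 3 as crosses. At 20 days 11 are filled above 0, and for Cybb, Csf1r, Fcgr3 and Ly86 the cross lies far to the left of the circle.

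A further list held 12 genes of C/EBP and of granulocyte and monocyte priming, whose dependence on C/EBP was not tested. Of these 12 genes, 9 were tested for a change. None was called at 1 day, and at 20 days 3 rose, against 3.94% of all genes. In the fit without IL-1β 20-day replicate 3, Ms4a3 rose (1.34, adjusted p = 0.0231) and Lyz2, which encodes lysozyme, fell (-0.39, adjusted p = 0.0242) at 1 day. Ms4a3, a marker of granulocyte and monocyte progenitors, averaged 24.5 ± 11.3 CPM with IL-1β for 20 days and 1.77 ± 0.748 CPM with PBS (3.76 ± 0.34, adjusted p = 2.07e-05), and the IL-1β mean was 18.9 ± 2.67 CPM without replicate 3. Nkg7, a granule membrane protein gene, averaged 85.6 ± 8.59 CPM with IL-1β and 40.8 ± 6.10 CPM with PBS (1.07 ± 0.14, adjusted p = 0.000292), and Prtn3, which encodes proteinase 3, 167 ± 37.4 CPM with IL-1β and 127 ± 22.7 CPM with PBS (0.39 ± 0.10, adjusted p = 0.0226; SD, n = 4 each). The summed level of the list was 1820 CPM in IL-1β 20-day replicate 3 and 523 to 807 CPM in the other 13 libraries. Without that library 2 rose, and the median log2 fold change was 0.33 instead of 1.09. In that fit 7 of the 9 tested genes were above 0, instead of all 9. Mpo (-1.41, adjusted p = 0.176) and Elane (-0.77, adjusted p = 0.837) were below 0, neither being called. The list's call between the durations, Ms4a3 (2.42 ± 0.50, adjusted p = 0.0298), was lost without IL-1β or PBS replicates 1 or 2 of the 1-day groups or PBS 20-day replicate 3, and 2 were called without PBS 20-day replicate 4. Without PBS 20-day replicate 4, 3 rose and 1 fell at 1 day. Prtn3 was not called at 20 days without IL-1β 20-day replicate 3 (0.33, adjusted p = 0.0842).

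Of 11 monocyte and dendritic genes linked to IRF8 and KLF4, 8 were tested. At 1 day 1 fell, against 1.83% of all genes, and at 20 days 2 rose, against 3.94%. Irf5 fell at 1 day, with 19.9 ± 2.49 CPM with IL-1β and 30.3 ± 3.97 CPM with PBS (-0.60 ± 0.16, adjusted p = 0.0433, n = 3 each, edgeR), a call lost in 9 of the 14 fits that left out 1 library. At 20 days Ctss, which encodes cathepsin S, averaged 21.1 ± 4.42 CPM with IL-1β and 10.2 ± 2.93 CPM with PBS (1.07 ± 0.22, adjusted p = 0.00863), and Zeb2, a zinc finger repressor gene, 127 ± 8.63 CPM with IL-1β and 94.7 ± 25.0 CPM with PBS (0.44 ± 0.12, adjusted p = 0.0376). In 7 of the 14 fits with a library left out, 1 of these 2 calls was lost. Without IL-1β 20-day replicate 3 Ctss rose by 1.28 at 20 days and Zeb2 was no longer called, and at 1 day Ctss rose by 0.86 and Irf5 was no longer called.

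Markers of other marrow cells were counted at the same threshold. At 20 days 1 of 8 tested neutrophil granule genes rose (Lcn2), 3 of 10 macrophage markers fell, 2 of 8 erythroid markers rose and 1 fell, and 1 of 5 B, T and mast cell markers rose (Fcer1a), against 3.94% higher and 3.52% lower over all genes. Only 1 macrophage marker (Cd5l) fell at 20 days in the fit without IL-1β 20-day replicate 3, against 2.35% of all genes. Lcn2 was still called higher in that fit (log2 fold change 4.02, adjusted p = 0.0295, edgeR), against 2.63%. It averaged 2.23 ± 0.807 CPM in the IL-1β 20-day libraries without replicate 3 (n = 3) and 0.130 ± 0.139 CPM with PBS (SD, n = 4). At 1 day 1 of 8 tested erythroid markers rose (Hbb-bt) and none fell, against 2.52% and 1.83% of all genes. The median log2 fold change of these 8 was -0.29, with 3 above 0. No neutrophil, macrophage or B, T and mast cell marker was called at 1 day. The median log2 fold change of the tested neutrophil genes at 20 days was 4.47, and -0.97 over the 6 still tested without IL-1β replicate 3; the part of these cells in the results for the 10 factors was not tested.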

How the data were processed

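RNA was sequenced from 14 libraries of sorted SLAM cells. Per the labels' protocols, SMARTer low-input amplification and Nextera XT libraries were read from a single end. The build GRCm38.p4, STAR 2.4.2a, HTSeq 0.6.1, Trimmomatic 0.32, DESeq2 1.12.3, Cuffdiff and Cufflinks 2.0.2 are listed, without roles, in the submitters' processing notes, and no source used here gives the annotation or the strand setting. Raw counts per gene symbol were deposited by the authors. Counts carry no molecular identifiers, so floors cover counting error only.

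Tests used edgeR 4.0.16 under R 4.3.3 (TMM, filterByExpr with a minimum count of 10, robust quasi-likelihood fit, two-sided F-tests, Benjamini-Hochberg over 15466 genes, threshold 0.05), with all 14 libraries in 1 fit holding a naming set term and an IL-1β effect per duration (8 residual degrees of freedom). SEs are approximate, from the size of the log2 fold change over the root of F. The fit was tested on simulated data. The PBS comparison came from a model with 1 mean per group. CPM are TMM-scaled, except list sums. Over the 18 replicate pairs, chi-square per degree of freedom was 10.7 or more, more than sampling noise gives, so each library counted as 1 replicate. Alternatives were RLE and upper-quartile factors, DESeq2 1.42.0, no filter, no naming set term, a replicate block and leaving out each library.

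The members and lists were chosen with earlier results of these data known. Genes named are the 10 members, up to 3 called genes with the smallest p per list and comparison, and for Spi1 and each called member the 3 genes with the highest Pearson correlation of log2 CPM; Syf2 and Klf13 were among those for Spi1 (r = 0.931 and 0.902). A few genes that the rule names are not reported here. Fos and Cybb were added after their values were seen. Exon lengths and coordinates are from GENCODE M21 (GRCm38).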

Additional observations from a re-analysis of the deposited data

Results flagged for a closer look

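Within the groups of 4 libraries, 3 values lay far from the rest of their group by Dixon's test, out of 20 groups examined, where chance gives about 1 in 20. Cebpe had 2.86 CPM in IL-1β 20-day replicate 3, and between 0.0360 and 0.391 CPM in the other 3 IL-1β libraries. Spi1 had 132 CPM in the same library and 113 to 116 CPM in the others of its group. Runx1 had 133 CPM in PBS 20-day replicate 4 and 166 to 173 CPM in the other PBS libraries. No factor passed the test of a difference between the 20-day and 1-day effects in edgeR's main fit.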

How the results depend on the processing

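Scaling by RLE or upper-quartile factors and dropping the filter kept every call of the 9 tested factors. The number of factors called was 2 at 1 day, 4 at 20 days and 0 for the difference between durations; it was 0 and 2 without the naming set term, 1 and 2 with a replicate block, and DESeq2 called 1 for the difference. Leaving out 1 library gave 0 to 2, 2 to 4 and 0 to 1. Over all genes, 672, 1154 and 331 were called. DESeq2 called 1398, 1809 and 1182, and 10 between the PBS groups where edgeR called 0; the fit without the naming set term called 290, 525 and 23, and leaving out 1 library gave 228 to 1244, 648 to 1156 and 34 to 604, with 0 between the PBS groups.

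Same-numbered IL-1β and PBS libraries had correlations of their deviations from group means between -0.037 and 0.257. Of the 7 IL-1β libraries, 5 matched their own number best, replicate 1 at each duration being the exception. These values do not settle whether replicate numbers pair the libraries. With the replicate block 383, 672 and 23 genes were called; Cebpb had -0.55 (adjusted p = 0.0977) and -0.49 (0.0599), Klf4 at 20 days -0.92 (0.0531), and Gfi1 at 1 day 0.004 instead of -0.02.

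Signs turned only where nothing was called. Klf4's difference between durations was 0.16 without the naming set term. With 1 library left out, values ranged at 1 day from -0.35 to 0.32 (Irf8), -0.29 to 0.25 (Gfi1) and -0.49 to 0.21 (Gfi1b), and at 20 days from -0.062 to 0.12 (Runx1). For the difference they ranged from -0.19 to 0.45 (Cebpa), -0.054 to 0.15 (Cebpb), -0.41 to 0.24 (Irf8) and -0.48 to 0.35 (Klf4). For PBS at 20 days over 1 day they ranged from -0.20 to 0.061 (Spi1), -0.29 to 0.78 (Cebpb) and -0.97 to 2.23 (Klf4). The causes were not tested. List counts with each library left out, other than IL-1β 20-day replicate 3, were added after seeing the data. Depth limits Cebpa and Cebpe most.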
